A study of Mus musculus with 6 samples.

Results

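Type I interferon-stimulated genes are the transcripts that a cell switches on after an interferon-alpha or interferon-beta molecule has bound its receptor. A list of 40 of them was followed by symbol through single-cell RNA-seq libraries from mouse colon tumours, and all 40 were found among the 32285 genes of the matrices, each with at least 1 unique molecular identifier (UMI, the tag of a captured RNA molecule) in every library. By role they comprised 3 genes of the ISGylation system, 5 IFIT genes, 6 OAS genes, 3 signalling factors, 7 nucleic acid sensors, 7 antiviral and membrane effectors, 3 Schlafen genes and 6 other induced genes. Viable CD45+ EpCAM- cells, that is haematopoietic cells with tumour epithelium removed, had been sorted from tumours that were pooled from 5 mice for each condition. The genotypes were labelled Control and SOX17KO, for loss of the endoderm transcription factor SOX17, and each was sequenced as 1 library at each of 3 collections: 1 week, 2 weeks, and a pair for which the labels give no time (the untimed pair). Which cells carried the SOX17 loss, the promoter or method behind it, and mouse age, strain and sex are not given in the sources used here. Each group is therefore 1 library of pooled animals, and the spread between animals was not measured.

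Type I interferons bind the receptor IFNAR1-IFNAR2, whose kinases JAK1 and TYK2 phosphorylate STAT proteins, among them STAT2. STAT2 and IRF9 are subunits of the complex ISGF3, which binds interferon-stimulated response elements at the promoters of many genes, whose products often bind viral RNA or DNA, restrict virus entry or tag proteins with ISG15. In tumours the program is known from myeloid and T cells, and several of its genes also answer interferon-gamma, so that the list marks interferon responses in general and not the type I ligand alone.

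To show what members share in sequence, the response element core GAAANNGAAA (or TTTCNNTTTC on the other strand, N being any base) was searched in RefSeq promoter windows of build GRCm38.p6, which run from 250 bases before to 50 bases after a gene's start. This core also matches sites of other interferon regulatory factors. Of the 40 members 32 had an entry, and 19 of these (59.4%) held the core, against 1079 of 27025 genes with an entry (3.99%). The stretches below lie upstream of the RefSeq start of a named member in 6 role groups, read 5' to 3' on the gene's strand with the core in capitals.
Isg15: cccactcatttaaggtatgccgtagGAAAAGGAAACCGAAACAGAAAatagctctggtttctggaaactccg
Ifit1: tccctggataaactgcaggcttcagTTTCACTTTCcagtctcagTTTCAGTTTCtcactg
Oas3: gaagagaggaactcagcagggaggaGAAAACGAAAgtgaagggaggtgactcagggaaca
Stat2: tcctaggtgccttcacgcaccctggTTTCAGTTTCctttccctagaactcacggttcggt
Bst2: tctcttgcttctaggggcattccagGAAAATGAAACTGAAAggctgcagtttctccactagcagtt
Slfn5: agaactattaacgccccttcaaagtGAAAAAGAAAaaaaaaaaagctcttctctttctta
The Isg15 stretch (chr4:156200850-156200921, minus strand) holds 3 overlapping matches and lies 78 bases before the start. In Ifit1 (chr19:34640760-34640819, plus strand) 2 separate matches are seen, and the Bst2 stretch (chr8:71537562-71537627, minus strand) holds 2 that overlap. Single matches are shown for Oas3 (chr5:120777700-120777759, minus strand), Stat2 (chr10:128270251-128270310, plus strand) and Slfn5 (chr11:82951922-82951981, plus strand). GENCODE starts Slfn5 earlier, at 82951349, so that its stretch lies inside the gene by that annotation. The windows of Herc6, Ifit2, Oasl2, Irf7 and Slfn1 held no match, which says only that these letters are absent from that window. Several families also sit together in the genome: the 5 Ifit members lie within 99.3 kb on chromosome 19 (34550694 to 34650009), Oas1a, Oas1g, Oas2 and Oas3 within 177 kb on chromosome 5 (120730333 to 120907521), and the 3 Schlafen members within 171 kb on chromosome 11 (82951349 to 83122670). Counts of near-identical copies (Ifit3 and Ifit3b, Ifit1 and Ifit1bl1, Oas1a and Oas1g, the Schlafen and Ifi204 families) are uncertain, since counting may assign a read to the wrong copy or drop it.

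After filtering, 2933 to 6860 cells per library remained, with 17193585 to 46474745 UMIs in all and a median of 3039 to 5928 UMIs per cell. Ptprc, which encodes CD45, had a UMI in 86.8% to 93.9% of cells. Sox17 had only 3 to 20 UMIs per library in these sorted cells, Control and SOX17KO alike, so the genotype labels could not be checked from it. Class make-up differed widely: T cells numbered 3852 and 4235 in the untimed Control and SOX17KO libraries, 114 and 172 at 1 week, and 2110 and 764 at 2 weeks, while macrophages numbered 29, 52, 1949, 2549, 475 and 462 in the same order. A sum over all cells follows this make-up, and there fewer cells of a class and less RNA per cell cannot be told apart, so values are given mainly within cell classes gated by marker genes. The class of T cells is itself a sum, of CD8, CD4, regulatory, gamma-delta and remaining T cells. In the same order regulatory T cells numbered 462, 28, 28, 34, 115 and 54, and CD8 T cells 1199, 2905, 12, 26, 1013 and 283. The part of this make-up in the T cell values below was not tested. Levels are UMIs per 1000000 UMIs of the class (CPM) in that library, and they are not corrected for gene length.

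Interferon-stimulated RNA was most abundant in monocytes or neutrophils in 5 of 6 libraries, among classes of at least 20 cells. In the untimed SOX17KO library, which kept 13 monocytes and 8 neutrophils, fibroblasts were highest at 1888 CPM (64 cells), and regulatory T cells stood at 1091 and macrophages at 1079. The 40 members together made up 9063 CPM of monocytes, 8966 of macrophages and 5995 of neutrophils in the untimed Control library, against 2319 of T cells and 1076 of natural killer (NK) cells. At 1 week in Control the same sum was 15680 CPM in monocytes, 14347 in neutrophils, 10370 in macrophages, 9362 in regulatory T cells, 5563 in T cells and 2334 in NK cells. In each library with at least 20 cells of both classes, macrophages exceeded T cells and T cells exceeded NK cells.

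**Figure D1:**
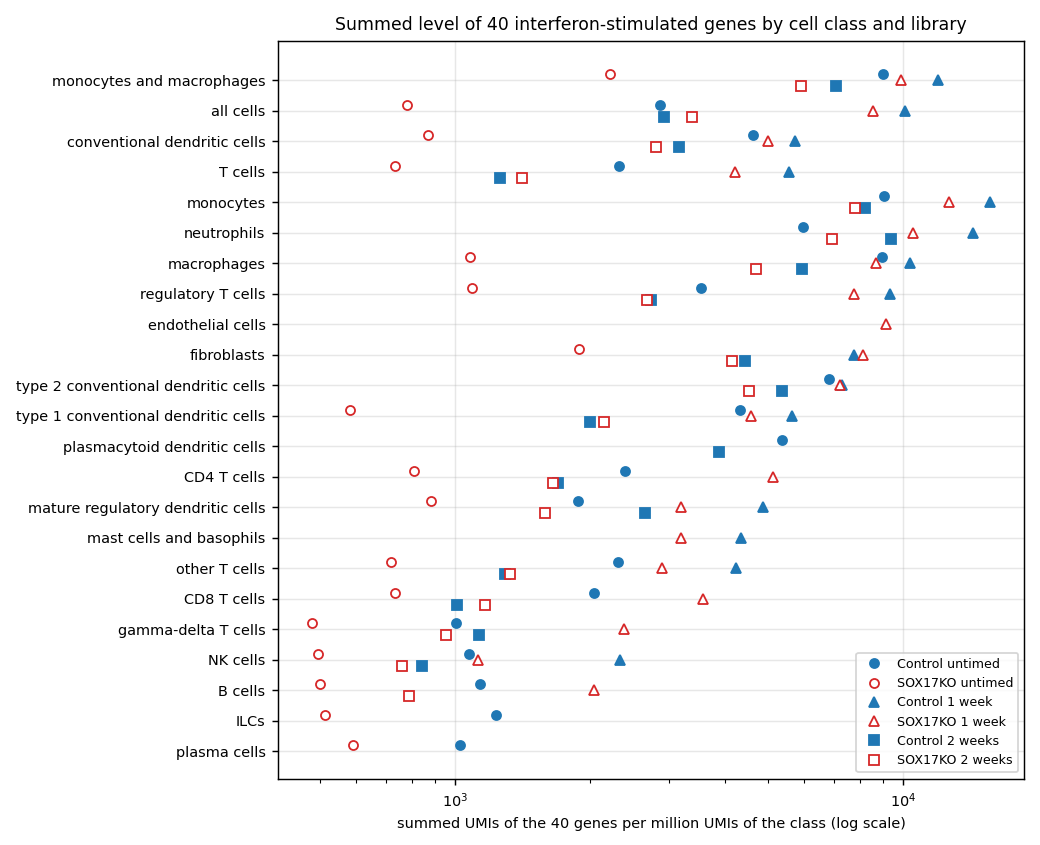
Summed level of the 40 members (CPM of the class, log axis) in each cell class with at least 20 cells, 1 point per library. The SOX17KO untimed library is the lowest point in T cells (733 CPM), macrophages (1079) and type 1 conventional dendritic cells (582), and the 1-week libraries are the highest in T cells (5563 and 4219).

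Which member was most abundant depended on the class. Ifitm3, a membrane protein that blocks virus fusion, led in monocytes at 3802 CPM in the untimed Control library and 4726 and 4160 CPM in the Control and SOX17KO libraries at 1 week. Ifi27l2a, a small mitochondrial protein of the ISG12 family, led in regulatory T cells, at 1579, 399, 4719, 3202, 974 and 1221 CPM (Control then SOX17KO, untimed, 1 week, 2 weeks). Its level in NK cells was far lower in all libraries, at 10.2, 0, 207, 53.9, 9.20 and 1.99 CPM. Bst2, or tetherin, which holds budding virions at the cell surface, reached 2897 CPM in plasmacytoid dendritic cells of the untimed Control library, the class best known for making interferon-alpha, against 518 CPM in type 2 conventional dendritic cells, the class next in order. Rsad2, or viperin, a radical enzyme that makes a chain-terminating nucleotide, was highest in neutrophils in both 1-week libraries (998 and 645 CPM). Single libraries per group mean that the order of neighbouring classes was not tested.

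The clearest shared pattern across collections was a high level at 1 week and a lower one at 2 weeks. In T cells 27 of 39 members with at least 20 UMIs over the 6 libraries were highest in the Control library at 1 week and 10 in the SOX17KO library at 1 week. Between 1 and 2 weeks 319 of 350 values of a member in a class (91.1%) were lower in Control and 380 of 440 (86.4%) in SOX17KO. Of all genes 39.7% to 53.1% were lower by class in Control and 38.0% to 64.1% in SOX17KO, the highest share being that of neutrophils. Such values come from the same libraries and are not independent. The change was tested with edgeR's quasi-likelihood test, with collection and genotype as terms and Benjamini-Hochberg adjustment over all genes of the class, taking the genotypes as the replicates. In classes fitted on 6 libraries the spread is estimated over all 3 collections. It therefore also holds the untimed pair, which has no part in the change itself. No member was called higher in any of 14 fitted classes. These include the sum of all cells, T cells, monocytes with macrophages and conventional dendritic cells, which contain other classes among the 14. Counts over classes therefore hold some cells more than once.

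Among the ISGylation genes, Isg15, the ubiquitin-like modifier itself, was the member called lower most often, in 9 of 14 classes, and its fitted change was below 0 in all 14. In T cells it measured 367 and 201 CPM at 1 week (Control, SOX17KO) and 18.6 and 16.4 CPM at 2 weeks, so that the weeks did not overlap. The fitted fall was 4.07 ± 0.32 on the log2 scale (SE, edgeR's quasi-likelihood test, adjusted p = 0.00143). Herc6, the mouse ligase that attaches ISG15, behaved differently: in T cells it measured 80.0 and 119 CPM at 1 week and 64.8 and 74.8 at 2 weeks, and it was called in 1 of 14 classes. Usp18, the protease that removes ISG15 and dampens receptor signalling, was called in 2.

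Of the IFIT genes, which bind viral RNA ends and block its translation, Ifit1 in T cells measured 57.9 and 45.9 CPM at 1 week and 6.39 and 10.9 CPM at 2 weeks. Ifit2 in T cells measured 24.6 and 31.7 CPM at 1 week and 17.2 and 18.4 at 2 weeks, a fitted change of -0.79 ± 0.47 that was not called (edgeR, adjusted p = 0.341). In monocytes, by contrast, Ifit2 stood at 311 and 147 CPM at 1 week and at 42.8 and 73.1 CPM at 2 weeks, a fall of 2.02 ± 0.19 on the log2 scale (edgeR, adjusted p = 1.08e-14). That fit used 4 libraries and leaves 1 residual degree of freedom. The fall was much larger in Control than in SOX17KO, a difference that the SE does not span. Ifit1 was called lower in 3 of 12 classes, Ifit2 in 2 of 11 and Ifit3 in 2 of 10.

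The OAS genes encode synthetases that make 2-5A, the activator of RNase L, or related proteins without that activity. Oas3 in T cells measured 39.4 and 29.2 CPM at 1 week and 8.83 and 9.68 CPM at 2 weeks, and Oasl2 measured 46.8 and 37.5 against 3.02 and 4.74. Both fell in T cells by edgeR's quasi-likelihood test. Oasl2 fell by 3.58 ± 0.80 on the log2 scale (adjusted p = 0.0464). In neutrophils, where Oasl2 was far more abundant, it stood at 624, 584, 659 and 541 CPM in the 4 timed libraries (Control and SOX17KO at 1 week, then at 2 weeks), and the weeks overlapped.

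The signalling factors differed among themselves. Irf7, which is itself induced and amplifies interferon transcription, measured 88.7 and 55.9 CPM in T cells at 1 week and 9.69 and 12.1 CPM at 2 weeks, a fall of 2.79 ± 0.34 on the log2 scale (edgeR, adjusted p = 0.00598). Stat2, a subunit of ISGF3, measured 75.1 and 65.1 CPM against 27.3 and 30.4 there and also fell. Irf9, the DNA-binding subunit of ISGF3, was called in none of 14 classes, and its fitted change was below 0 in 7 of them with a median of 0.01. In macrophages Irf9 measured 56.0 and 52.9 CPM at 1 week and 61.5 and 58.1 CPM at 2 weeks, and in monocytes 73.5 and 58.6 against 80.5 and 86.6.

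Among the nucleic acid sensors, Ifi204, a mouse relative of human IFI16 that binds DNA, measured 135 and 104 CPM in T cells at 1 week and 5.46 and 8.49 CPM at 2 weeks, a fall of 4.20 ± 0.54 on the log2 scale (edgeR, adjusted p = 0.00662). Zbp1, a sensor of Z-form nucleic acid that can start necroptosis, was called lower in 8 of 14 classes. Its T cell level went from 292 and 261 CPM to 59.2 and 57.5, and its monocyte level from 748 and 616 CPM to 364 and 320. Ifih1 (MDA5), Ddx58 (RIG-I), Dhx58 (LGP2) and Ddx60, all RNA helicases of cytosolic RNA sensing, were each called only in monocytes among the classes where they were tested. Eif2ak2 (PKR), the kinase that stops translation on double-stranded RNA, was called in monocytes and fibroblasts.

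Of the effectors, Ifitm3 measured 761 and 597 CPM in T cells at 1 week and 109 and 129 CPM at 2 weeks. In monocytes it measured 4726 and 4160 against 3078 and 2625, a smaller fall of 0.75 ± 0.16 on the log2 scale (edgeR, adjusted p = 0.000268). Bst2 in T cells went from 245 and 134 CPM to 69.6 and 60.2, and it was called lower in 7 of 14 classes. Among the Schlafen genes, known as regulators of lymphocyte quiescence and translation, Slfn5 in T cells measured 107 and 95.1 CPM at 1 week and 11.6 and 11.9 CPM at 2 weeks, while Slfn1 measured 73.9 and 66.7 against 32.6 and 40.7. Of the remaining genes, Ifi27l2a in T cells measured 1947 and 1295 CPM at 1 week and 324 and 377 at 2 weeks. Parp14, a mono-ADP-ribosyltransferase, measured 211 and 147 CPM against 80.1 and 83.9 in the same cells.

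**Figure D2:**
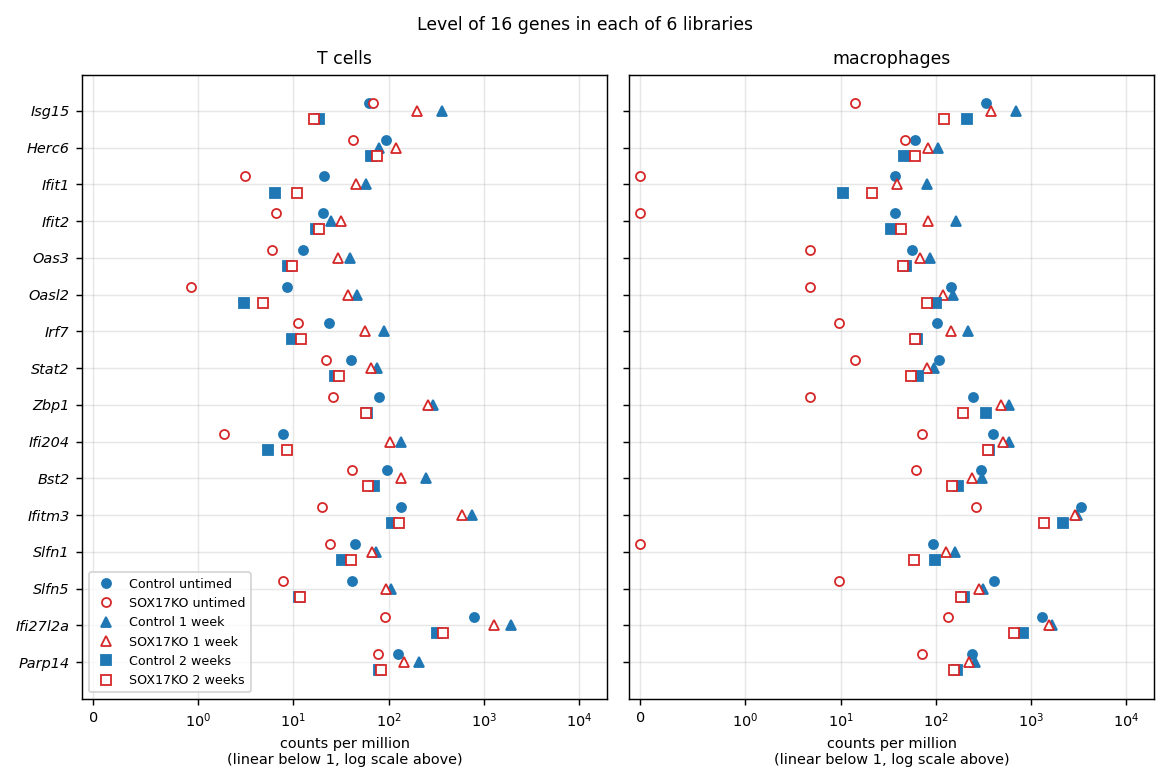
Level of 16 members, 2 per role group, in T cells and macrophages (CPM of the class, axis linear near 0 and logarithmic above), 1 point per library, Control and SOX17KO at each collection. Isg15 in T cells stands at 367 and 201 at 1 week and at 18.6 and 16.4 at 2 weeks, and in macrophages the SOX17KO untimed library is at 14.3 against 339 in its Control.

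Counted by class, 12 of 39 members tested were called lower at 2 weeks in T cells (background over all genes tested 4.38% lower), 14 of 28 in regulatory T cells (5.88%), 12 of 25 in NK cells (6.82%) and 6 of 35 in the T cells left after CD8, CD4, regulatory and gamma-delta gates (3.87%). In the sum of all cells 7 of 40 were called lower (6.5%). Neutrophils, monocytes, fibroblasts and type 2 conventional dendritic cells were too few in the untimed pair. They were fitted on the 4 timed libraries, which leaves 1 residual degree of freedom. There 36 of 39 members fell in monocytes (background 9.79%), 18 of 37 in fibroblasts (4.31%) and 7 of 30 in type 2 conventional dendritic cells (3.72%). In neutrophils 3 of 34 fell (5.07%), namely Isg15 by 0.95 ± 0.18, Ifitm3 by 1.35 ± 0.17 and Ifi27l2a by 0.92 ± 0.18 on the log2 scale (edgeR, adjusted p = 0.0171, 0.00553 and 0.021). Their neutrophil levels at 1 week (Control, SOX17KO) were 1701 and 888 CPM for Isg15, 2285 and 1735 for Ifitm3 and 909 and 911 for Ifi27l2a, and at 2 weeks 837 and 454, 815 and 694, and 499 and 435. A share of 3 in 34 is close to that background. DESeq2 called fewer members in regulatory T cells (4), NK cells (2), fibroblasts (6) and type 2 conventional dendritic cells (2), and more in T cells (23) and all cells (30), with 0.643% to 24.8% of all genes called in the classes where it called a member.

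In macrophages none of 38 members was called in the fit of 6 libraries by edgeR, DESeq2 or limma-voom (background 0%), with 16 at an unadjusted p under 0.05 by edgeR (13.8% of all genes). In the fit of the 4 timed libraries alone 32 of 40 were called (8.99% of all genes, in either direction). The levels there lay lower at 2 weeks for most members, with a ratio of 2 weeks to 1 week below 1 for 39 of 40 in Control and 37 of 40 in SOX17KO and medians of -0.85 and -0.61 on the log2 scale, against -0.01 and 0.05 over all genes. Type 1 conventional dendritic cells likewise had 0 of 31 called by edgeR (background 0.0397%), 20 at an unadjusted p under 0.05 (12.5% of all genes), 0 by DESeq2, 3 by limma-voom and 16 of 30 on the timed libraries alone (3.81% of all genes). In mature regulatory dendritic cells, which have left the antigen-sampling state and carry Ccr7 and Fscn1, 0 of 23 were called (background 0.0172%), 12 had an unadjusted p under 0.05 (11.8% of all genes), and DESeq2 and limma-voom called 0 and 1. The joint classes of monocytes with macrophages and of conventional dendritic cells had 0 of 40 and 0 of 37 called by all 3 tools (background 0% and 0.0208%), with 17 and 14 at an unadjusted p under 0.05 (14.4% and 16.9% of all genes). On the timed libraries alone 33 of 40 and 15 of 37 were called (13.4% and 7.48% of all genes).

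**Figure D3:**
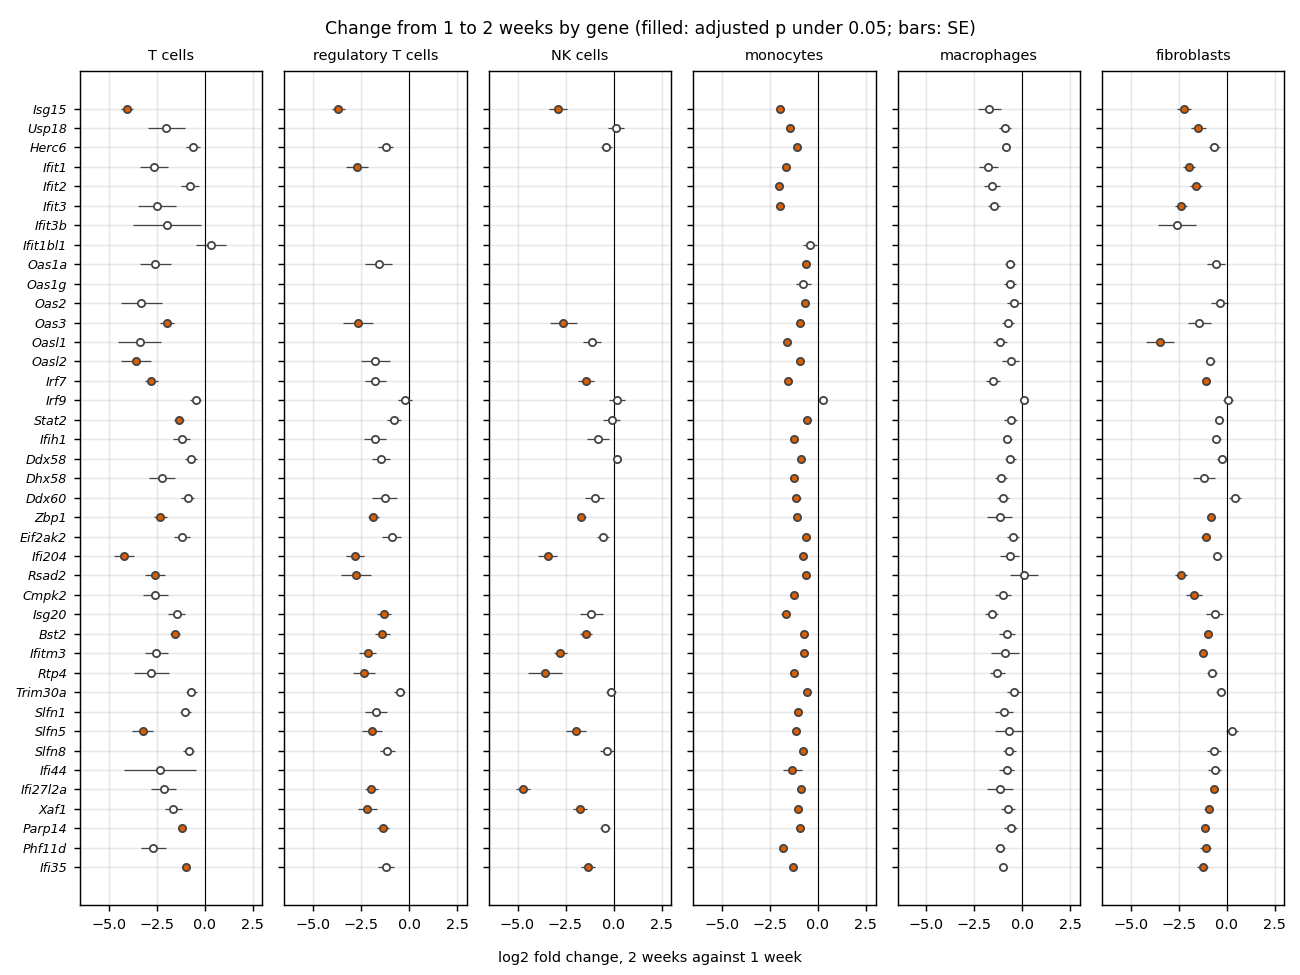
Fitted change from 1 to 2 weeks (log2, 2 weeks minus 1 week, bars ± SE) for each member tested in T cells, regulatory T cells, NK cells, monocytes, macrophages and fibroblasts, filled points having an adjusted p under 0.05. Nearly all points lie below 0, Isg15 is the lowest or among the lowest in most panels, and no macrophage point is filled.

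Macrophage RNA in the T cell droplets moved with this change. The 6 macrophage markers summed to 214 and 125 CPM in T cells at 1 week (all 6 detected in both libraries) and to 11.3 and 17.4 CPM at 2 weeks. Complement C1q RNA in T cells amounted to 0.687% and 0.567% of its macrophage level at 1 week and 0.142% and 0.205% at 2 weeks. The whole marker sum amounted to more, 4.45% and 2.94% of its macrophage level at 1 week and 0.283% and 0.42% at 2 weeks. RNA carried over at the C1q shares would give 1.48% and 1.33% of the members' T cell level at 1 week, and at the shares of the whole sum 9.59% and 6.91%. At 2 weeks these estimates were 0.799% and 0.862% from C1q and 1.59% and 1.76% from the sum. The part of such RNA in the change between weeks was not tested.

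Between genotypes the pairs did not move alike. In the untimed pair 303 of 322 values of a member in a class (94.1%) were lower in SOX17KO, at 1 week 281 of 369 (76.2%) and at 2 weeks 228 of 404 (56.4%). By class the share of all genes lower was 43.3% to 61.2%, 42.1% to 53.5% and 45.5% to 55.5% in the same order, so that the 2-week share is close to that background. With 1 library a group there is no test within a pair, and intervals below cover counting error only.

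**Figure D4:**
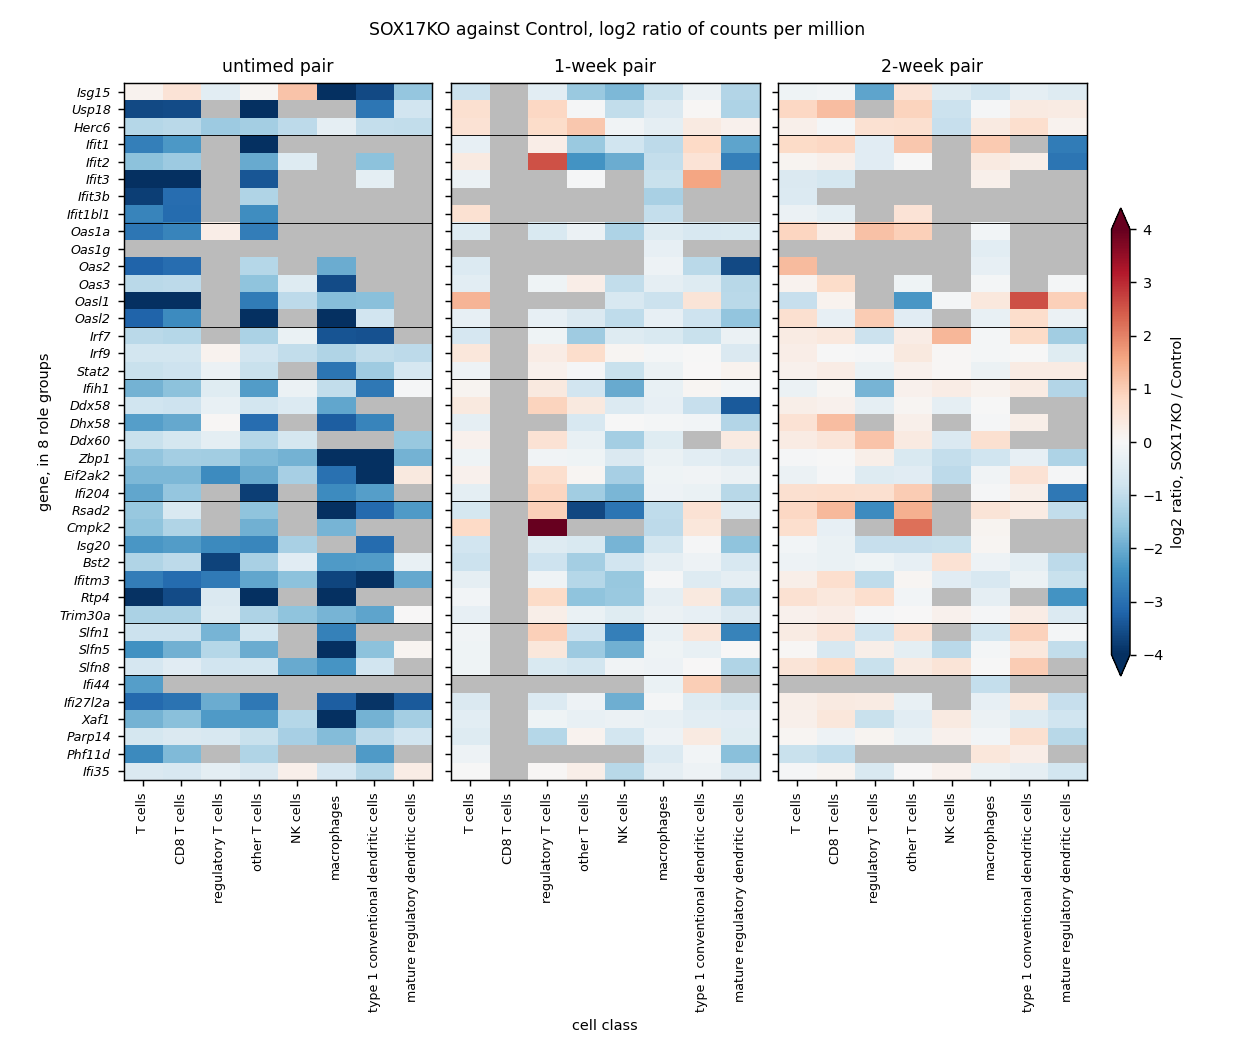
Log2 ratio of SOX17KO to Control for the 40 members (in rows, by role group) in 8 cell classes in the untimed, 1-week and 2-week pairs, with a member at 0 in 1 library drawn at its bound against 3 UMIs. Grey marks fewer than 20 cells, under 10 UMIs over both libraries or no bound away from 0. The untimed panel is blue in most cells that hold a value. Exceptions there include Isg15 in CD8 T cells, the remaining T cells and NK cells, and 4 of 19 members in mature regulatory dendritic cells. At 1 week values are lower for 40 of 40 members in macrophages, 31 of 32 in NK cells and 30 of 34 in mature regulatory dendritic cells. The 2-week panel is mixed apart from mature regulatory dendritic cells (22 of 26 lower).

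In the untimed pair 30 of 39 T cell members were at least 2-fold lower in SOX17KO, against 15.2% of all genes with as many UMIs, with a median log2 ratio of -1.88 (all genes -0.18). In macrophages 25 of 28 were at least 2-fold lower (12.7% of all genes) with a median of -3.31, or -2.82 with members at 0 set to their bound. In type 1 conventional dendritic cells 22 of 29 were (14.5% of all genes), in CD8 T cells 28 of 38 (14%) and in NK cells 10 of 25 (11%). These last counts rest on few cells in SOX17KO, 52 macrophages, 29 type 1 conventional dendritic cells and 34 NK cells. By role the sum of all cells gave medians of -3.09 for OAS genes, -2.47 for IFIT genes, -2.11 for effectors, -1.67 for sensors, -1.36 for Schlafen genes, -1.26 for ISGylation genes and -1.10 for signalling factors. The class make-up of that sum also differed, with 138 plasmacytoid dendritic cells in Control and 1 in SOX17KO, and its part in the sum was not tested.

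Gene by gene, Ifi27l2a in untimed T cells measured 784 CPM in Control and 91.1 in SOX17KO, a log2 ratio of -3.11 (95% interval -3.18 to -3.03). Ifitm3 measured 136 and 19.9 CPM (-2.78, interval -2.95 to -2.61), and Slfn5 41.8 and 7.83 CPM (-2.42, interval -2.69 to -2.15). Rtp4, a chaperone of membrane receptors that binds viral RNA, had a log2 ratio of -3.97 (interval -4.50 to -3.48). Smaller differences were seen for Stat2 at 40.4 and 21.8 CPM (-0.89), Irf7 at 23.6 and 11.1 (-1.09), Oas3 at 12.5 and 5.90 (-1.08) and Parp14 at 127 and 77.4 (-0.71). Ifit1 measured 20.9 and 3.11 CPM, Oasl2 8.64 and 0.93, Zbp1 78.5 and 26.3, Bst2 96.0 and 41.4, Herc6 94.1 and 42.6, Ifit2 20.2 and 6.52, Ifi204 7.78 and 1.86, and Slfn1 44.4 and 24.2. Every one of these was lower in SOX17KO. Only Isg15 among the 39 was not, at 62.0 CPM in Control and 68.8 in SOX17KO (log2 ratio 0.15, interval 0.04 to 0.26). T cells here are a sum of classes, with 462 regulatory T cells in Control and 28 in SOX17KO. Ifi27l2a, most abundant in regulatory T cells, was lower in SOX17KO in each of the 12 single classes measured. The part of T cell make-up in these values was not tested.

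Isg15 split by class in this pair. It was higher in SOX17KO in CD8 T cells (51.1 and 74.0 CPM, Control first), in the remaining T cells (59.8 and 63.4) and in NK cells (32.5 and 71.7, the latter from 10 UMIs). In macrophages it measured 339 and 14.3 CPM, a log2 ratio of -4.57 (interval -6.88 to -2.96). In type 1 conventional dendritic cells it had 121 UMIs in Control and 0 in SOX17KO, which bounds the log2 ratio at -3.59 or below when 3 UMIs are allowed.

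Macrophages of the untimed pair showed the same low values across roles. Ifitm3 measured 3373 CPM in Control and 267 in SOX17KO (log2 ratio -3.66, interval -4.08 to -3.26), Slfn5 410 and 9.55 (-5.42, interval -8.49 to -3.53) and Ifi27l2a 1324 and 134 (-3.31, interval -3.92 to -2.75). The macrophage markers summed to 4994 CPM in those SOX17KO cells and 2539 in Control. They also define the gate, so they cannot show whether the cells of the 2 libraries were in a like state. Herc6 measured 61.3 and 47.8 CPM there (-0.36, interval -1.71 to 0.94), a difference not detectable at this depth.

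At 1 week the genotype difference was smaller and differed by class. All 40 members had lower levels in SOX17KO in both monocytes and macrophages, with median log2 ratios of -0.41 and -0.34 (all genes 0.03 and 0.01), while 6 and 4 were at least 2-fold lower (2.01% and 2.64% of all genes). Isg15 stood at 936 and 498 CPM in monocytes and 705 and 381 in macrophages, and Ifit1 at 135 and 63.9 and at 81.7 and 39.3. Ifitm3 and Ifi27l2a hardly differed, with macrophage log2 ratios of -0.06 (interval -0.08 to -0.04) and -0.09 (-0.12 to -0.07). NK cells had the lowest median of the classes measured at 1 week, -1.003, with 16 of 32 members at least 2-fold lower (5.6% of all genes). The 6 macrophage markers in NK cells summed to 90.02 CPM in Control and 29.3 in SOX17KO at 1 week, while C1q RNA alone went the other way, at 9.27 and 18.0 CPM. The part of macrophage RNA in the NK values was not tested. Regulatory T cells (28 and 34 cells) and fibroblasts had medians of 0.23 and 0.03.

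At 2 weeks the direction was mixed. The median log2 ratio was 0.20 in T cells with 26 of 38 members higher in SOX17KO, 0.05 in monocytes, -0.09 in macrophages, -0.40 in neutrophils, -0.48 in fibroblasts and -0.85 in mature regulatory dendritic cells. Macrophage Ifitm3 measured 2191 CPM in Control and 1391 in SOX17KO (-0.66, interval -0.72 to -0.59), while Ifit1 measured 10.6 and 21.6 (1.03, interval 0.29 to 1.83).

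Across the 3 pairs, with the collections as replicates, only 1 of the 40 members was called for genotype, in 1 class. Median log2 differences of the members tested (untimed, 1 week, 2 weeks) were -0.84, -0.54 and -0.71 in mature regulatory dendritic cells. In NK cells they were -1.06, -0.85 and -0.35. Macrophages and monocytes with macrophages were also below 0 in each pair, but near 0 at 2 weeks (-0.08 and -0.05). In the other classes fitted the sign differed between pairs. By edgeR's quasi-likelihood test Ifi27l2a was called lower in NK cells of SOX17KO (adjusted p = 0.0202), from 11, 156 and 7 UMIs in Control (untimed, 1 week, 2 weeks) against 0, 57 and 2 in SOX17KO. The log2 ratio was -1.94 at 1 week (interval -2.40 to -1.49), while the untimed and 2-week intervals reached up to 1.62 and 0.19 and so included 0. With 1 library at 0 the fitted size is not given. It was 1 of 25 members tested there, against a background of 0.0722% of genes called lower. DESeq2 did not call it, and neither did edgeR when the 1-week pair or the 2-week pair was left out. In the other 9 classes fitted no member was called by edgeR, DESeq2 or limma-voom (background 0.0102% of genes lower in the remaining T cells, 0.0949% in regulatory T cells and 0% in the others). At an unadjusted p under 0.05 by edgeR stood 3 of 40 members in all cells (5.17% of all genes), 4 of 39 in T cells (8.16%), 4 of 40 in monocytes with macrophages (1.96%), 6 of 37 in conventional dendritic cells (5.76%) and 6 of 28 in regulatory T cells (7.02%). In the remaining T cells these were 11 of 35 (7.45%), in macrophages 1 of 38 (1.55%), in type 1 conventional dendritic cells 1 of 31 (4.30%) and in mature regulatory dendritic cells 9 of 23 (4.15%). The shares in all cells, T cells, macrophages and type 1 conventional dendritic cells are close to that background. In NK cells the count was 12 of 25 (4.65%). Without the filter on low counts edgeR called 1 to 10 members in 8 of those 9 classes (0.236% to 1.92% of all genes called in either direction), the sum of all cells staying at 0. Fitted medians ran from -0.31 to -0.90 over the 10 classes. With the untimed pair left out the sum of all cells had a median of -0.05, and the classes had medians of -0.01 (T cells), -0.33 (macrophages), -0.67 (NK cells), 0.03 (regulatory T cells) and 0.02 (type 1 conventional dendritic cells).

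Whether the untimed genotype difference exceeded that of the timed pairs was tested as an interaction, which leaves 1 residual degree of freedom. By edgeR's quasi-likelihood test 23 of 39 members in T cells had a more negative difference in the untimed pair (background 3.25% of genes), as had 19 of 39 in macrophages (1.75%), 21 of 40 in monocytes with macrophages (2.55%), 8 of 37 in conventional dendritic cells (0.396%) and 7 of 40 in all cells (0.76%). In T cells the interaction was -2.77 ± 0.33 for Ifi27l2a (adjusted p = 5.06e-14), -2.56 ± 0.31 for Ifitm3, -4.05 ± 0.43 for Rtp4 and -4.20 ± 0.59 for Usp18 on the log2 scale. Ifi27l2a was called in 9 of 10 classes and Ifitm3 in 7, with joint classes and the sum of all cells counted among these. DESeq2 called 7 members in T cells, 8 in macrophages, 9 in monocytes with macrophages, 4 in conventional dendritic cells and 24 in all cells, with 0.454% to 4.26% of all genes called in either direction in these 5 classes.

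Classes with few calls are given in full. In regulatory T cells (background 0.32%) 2 of 30 were called: Ifi27l2a (-1.94 ± 0.40, edgeR, adjusted p = 0.0031), whose levels are given above, and Ifitm3, at 225, 0, 775, 682, 271 and 134 CPM in the order used above. In the remaining T cells (0.452%) 4 of 36 were called. Usp18 measured 15.5, 0.94, 31.6, 30.3, 9.34 and 17.2 CPM, Herc6 97.1, 38.1, 54.6, 116, 64.1 and 101, Ifit1 20.4, 0.31, 46.0, 16.5, 7.56 and 16.04, and Ifi27l2a 790, 109, 1011, 888, 267 and 217. Each had its lowest value in the untimed SOX17KO library. In type 1 conventional dendritic cells (0.314%) 4 of 35 were called, and these were Isg15 (158, 0, 320, 275, 45.9 and 35.5 CPM), Rsad2 (113, 0, 78.7, 116, 9.45 and 11.8), Ifitm3 (1639, 83.1, 2026, 1429, 641 and 544) and Ifi27l2a (330, 21.9, 528, 368, 70.2 and 93.2). In mature regulatory dendritic cells (1.05%) 1 of 32 was called, Ifi27l2a, at 217, 0, 898, 552, 203 and 107 CPM. NK cells gave 1 of 31 in the opposite direction (0.451% of genes called higher), Isg15, by 2.62 ± 0.67 (edgeR, adjusted p = 0.0175), with 32.5, 71.7, 152, 43.5, 15.8 and 11.0 CPM. Where a library is at 0 the fitted size is no bound and is not given. In these last 5 classes DESeq2 called 0 members in regulatory T cells, 1 in the remaining T cells, 2 in type 1 conventional dendritic cells, 0 in mature regulatory dendritic cells and 0 in NK cells.

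Cell by cell, after each cell was thinned to 1000 UMIs, the untimed difference was visible in the shares of cells without member RNA and in the medians. Among T cells 24.99% in the untimed Control library had 0 member UMIs, against 52.4% in SOX17KO. At 1 week these shares were 13.2% and 18.1%, and at 2 weeks 35.3% and 35.1%. The untimed macrophages had a median of 8 member UMIs in Control and 1 in SOX17KO, where 42.2% of cells had 0. Monocytes had medians of 15 and 12 at 1 week and 7 and 7 at 2 weeks. Cells under 1000 UMIs were left out, 210 of 3852 and 86 of 4235 untimed T cells; without thinning the T cell medians were 7 and 2.

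**Figure D5:**
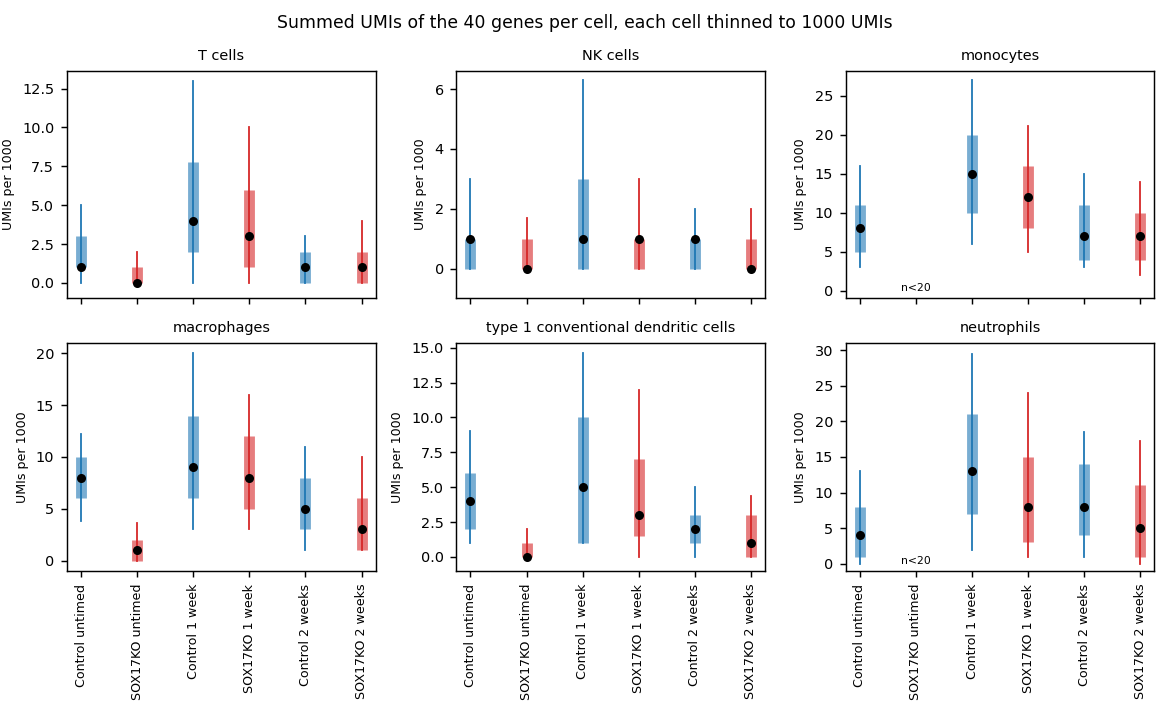
Member UMIs per cell after thinning to 1000 UMIs, by library, in T cells, NK cells, monocytes, macrophages, type 1 conventional dendritic cells and neutrophils (line 10th to 90th percentile, bar quartiles, point median). Untimed macrophages have medians of 8 (Control) and 1 (SOX17KO), and monocytes fall from 15 and 12 at 1 week to 7 and 7 at 2 weeks.

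The pathway upstream of the members was hardly visible at the ligand level. Of 18 type I interferon genes 13 had no UMI in any kept cell. Ifnb1 had 0, 0, 1, 22, 1 and 2 UMIs in the 6 libraries, Ifnk 6, 4, 5, 5, 0 and 1, Ifnz 6, 1, 0, 0, 2 and 1, and Ifna11 and Ifne 1 each. Only Ifnb1 passed the filter on low counts, in the interaction fit of all cells, where it was not called (edgeR, adjusted p = 1). Ifng, the type II ligand, was plentiful by comparison, with 7310 UMIs in the 2905 CD8 T cells of the untimed SOX17KO library and 1955 in the 1199 of its Control. These are totals that also follow the number of cells.

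Of 10 receptor and signalling genes 3 fell between weeks in T cells (4.38% of all genes lower), namely Stat2, Socs1 and Socs3, the last 2 being feedback inhibitors of cytokine signalling. In monocytes 4 fell (9.79% of all genes), with Socs1 lower by 1.64 ± 0.16 on the log2 scale (edgeR, adjusted p = 5.63e-14). The receptor chains Ifnar1 and Ifnar2 measured 115, 117, 104 and 123.3 CPM and 220, 244, 149 and 182 CPM in all cells of the 4 timed libraries. Of 12 upstream sensors and relays tested 4 fell in all cells (6.5% of all genes), Myd88, Ticam1, Cgas and Irf5, a sum that also follows class make-up. By class 4 of 11 fell in monocytes (9.79%) and 2 of 10 in T cells (4.38%). Regulatory T cells (5.88%), the remaining T cells (3.87%) and neutrophils (5.07%) had 1 each, and macrophages, NK cells, fibroblasts and the dendritic cell classes none. No gene of these lists was called for genotype. In the interaction 1 receptor and signalling gene was called lower in T cells (3.25% of all genes) and 2 in monocytes with macrophages (2.55%). Irf8 was called in T cells and in the remaining T cells, and Ifnar2 and Stat2 in macrophages (Ifnar2 -1.51 ± 0.36, edgeR, adjusted p = 0.0264). Markers of plasmacytoid dendritic cells, which express Irf8, summed to 31.5 CPM in T cells of the untimed Control library and 2.73 in those of SOX17KO, and their part in these values was not tested.

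A comparison list of 10 genes held the interferon-gamma ligand, its receptor chains and targets, and it was split by class. Between 1 and 2 weeks 6 were called lower in T cells (4.38% of all genes), among them the chemokines Cxcl9 (by 4.68 ± 0.43 on the log2 scale) and Cxcl10 (3.80 ± 0.39) and the GTPase Gbp2 (2.98 ± 0.19; edgeR, adjusted p = 0.00235, 0.00306 and 0.00143). In NK cells 4 were called lower (6.82% of all genes), including Ifng itself by 1.55 ± 0.20 (adjusted p = 0.000782). In monocytes Cxcl9 and Cxcl10 fell (9.79% of all genes lower) while Ifngr1 and Nos2 rose (682 of 9667 genes higher). Calls lower numbered 4 in regulatory T cells (5.88% of all genes), 3 in the remaining T cells (3.87%), 3 in fibroblasts (4.31%) and 1 in neutrophils (5.07%). In all cells 4 fell (6.5%) and 1 rose (1405 of 16563 genes higher). None was called in macrophages, in monocytes with macrophages or in any dendritic cell class fitted. For genotype only Cxcl9 in NK cells was called, lower in SOX17KO (edgeR, adjusted p = 0.0399), with 1 library at 0. In the interaction 2 genes of this list were called higher and 3 lower in monocytes with macrophages (2.55% of all genes lower). Macrophages (1.75%), conventional dendritic cells (0.396%) and the remaining T cells (0.452%) each had 1 called higher and 1 lower. Type 1 conventional dendritic cells had 2 called lower (0.314%) and T cells 1 (3.25%). No other class fitted had a call.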

How the data were processed

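The authors deposited raw UMI counts per gene and cell barcode (whole numbers, 6 libraries), made with 10x 3' v3 chemistry per the labels' protocols. Cell Ranger 6.0.1 and mm10 are named in the submitters' processing notes, and Cell Ranger 7.0.1 per the file headers. No source used here gives the intron setting. Barcodes under 200 genes or over 10% mitochondrial UMIs were removed, then the top 0.8% per 1000 barcodes by Scrublet score, because the automatic threshold marked at most 0.332%. Library pairs shared 4 to 13 barcodes. Cells were gated into 20 classes from marker UMIs, those carrying 2 lineages being left out, and gate thresholds were set after the data were seen.

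Counts were summed per library and class of at least 20 cells in each library. They were tested with edgeR 4.0.16 (TMM, filterByExpr, quasi-likelihood test, Benjamini-Hochberg over all genes, 0.05) with collection and genotype as terms. This collection term pairs the libraries, since the labels give each pair of libraries a shared collection. The script was tested on simulated data. Log2 ratios within a pair came with exact binomial 95% intervals, for members with at least 10 UMIs over both libraries. A gene at 0 was bounded against 3 UMIs per library. Depth sets the precision: intervals and bounds cover counting error only. Alternatives were DESeq2 1.42.0, limma-voom 3.58.1, no TMM, no filter, no block, leaving out a pair, 5% mitochondrial UMIs, no doublet removal and a stricter gate. Values in every library are given for the 2 members of each role with the highest mean CPM in all cells and for members called in a class with fewer than 5 calls; further genes named in text were chosen after their values were seen. Members and lists were chosen with earlier results of these data known. P-values rest on single pooled libraries from 3 collections, or from the timed collections alone for classes too small in the untimed pair. Fits on the 4 timed libraries leave 1 residual degree of freedom. Whether the collections are separate cohorts of animals is not given. Positions are from GENCODE for GRCm38, promoters from RefSeq. A result for 1 further pathway gene is not reported here.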

Additional observations from a re-analysis of the deposited data

Results flagged for a closer look

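For some members the genotype difference of the untimed pair differed from the mean of the 1-week and 2-week pairs, by an interaction test (edgeR's quasi-likelihood test, 1 residual degree of freedom). Percentages give the share of all genes called in the same direction. Called were 23 of 39 members in T cells (3.25%), 21 of 40 in monocytes with macrophages (2.55%), 19 of 39 in macrophages (1.75%), 8 of 37 in conventional dendritic cells (0.396%) and 7 of 40 in the sum of all cells (0.76%). Smaller counts were 4 of 35 in type 1 conventional dendritic cells (0.314%), 4 of 36 in the T cells outside the CD8, CD4, regulatory and gamma-delta gates (0.452%), 2 of 30 in regulatory T cells (0.32%), 1 of 32 in mature regulatory dendritic cells (1.05%) and 1 of 31 in NK cells (0.451%). All but the NK cell member, Isg15, were more negative in the untimed pair. Library, collection and genotype cannot be told apart in a single untimed pair, and class make-up differed in that pair too: SOX17KO held 1 plasmacytoid dendritic cell against 138 in Control, 13 monocytes against 149 and 8 neutrophils against 304. Its T cells included 28 regulatory T cells in SOX17KO against 462 in Control.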

How the results depend on the processing

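Some genotype medians changed sign when the untimed pair was left out. Those of regulatory T cells and type 1 conventional dendritic cells, -0.31 and -0.35 in the main fit, then became slightly positive, as given above. For genotype, leaving out the filter on low counts gave 8 members called in T cells, 9 in monocytes with macrophages, 6 in conventional dendritic cells, 1 in regulatory T cells, 10 in other T cells, 3 in NK cells, 5 in macrophages, and 1 each in type 1 conventional and mature regulatory dendritic cells (median there -0.80). Without that filter 0.236% to 1.92% of all genes were called in either direction in the classes with a member called. The single NK cell call became 0 with DESeq2, 0 without the replicate block and 2 without doublet removal. Leaving out a pair gave 0 to 4 calls in NK cells, with medians of -0.90 to -0.36, and 0 to 1 in regulatory T cells. The block changed no other call. For 2 weeks against 1 week, DESeq2 called 23 members in T cells, 30 in all cells, 6 in fibroblasts, 2 in NK cells, 2 in type 2 conventional dendritic cells and 4 in regulatory T cells. Limma-voom called 19 in all cells, 3 in type 1 conventional and 1 in mature regulatory dendritic cells. Without TMM the count was 3 in all cells and 8 in neutrophils. Without the filter it was 16 in all cells, 32 in T cells, 21 in monocytes with macrophages, 19 in conventional dendritic cells, 17 in other T cells, 22 in macrophages, 16 in type 1 conventional and 3 in mature regulatory dendritic cells and 6 in neutrophils. Leaving out the untimed pair gave 38, 35, 33, 15, 15, 32, 16 and 5 in all cells, T cells, monocytes with macrophages, conventional dendritic cells, other T cells, macrophages, type 1 conventional and mature regulatory dendritic cells. That setting called 3.81% to 34.7% of all genes in the classes where it called a member. Without doublet removal other T cells had 2 and neutrophils 12, under a stricter gate 10 and 7, and at 5% mitochondrial UMIs neutrophils had 8. Over classes with a member called, the share of all genes called was 0.643% to 24.8% with DESeq2 and 0.0686% to 18.2% with limma-voom. It was 4.85% to 19.2% without TMM, 0.517% to 10.1% without the filter and 2.4% to 20% without doublet removal. With the stricter gate it was 5.71% to 17.4%, and at 5% mitochondrial UMIs 3.82% to 13.5%. The week medians moved to -2.36 in T cells with limma-voom. In regulatory T cells they were -1.54 without TMM, -1.50 with limma-voom, -1.65 without the filter, -1.61 without the untimed pair and -1.36 without doublet removal. In mature regulatory dendritic cells they were -0.92 without TMM, -0.72 without the filter, -0.75 without the untimed pair and -0.87 with the stricter gate. In neutrophils they were -0.52 with DESeq2, -0.56 without TMM, -0.52 with limma-voom, -0.62 without the filter, -0.52 at 5% mitochondrial UMIs, -0.47 without doublet removal and -0.47 with the stricter gate. For the interaction, DESeq2 called 24 in all cells, 7 in T cells, 9 in monocytes with macrophages, 4 in conventional dendritic cells, 0 in regulatory T cells, 1 in other T cells, 0 in NK cells, 8 in macrophages, 2 in type 1 conventional and 0 in mature regulatory dendritic cells, and edgeR without TMM called 16 in all cells, 1 in regulatory T cells and 11 in type 1 conventional dendritic cells. Over classes with a member called, these interaction fits called 0.216% to 4.26% of all genes with DESeq2 and 0.176% to 6.8% without TMM. The causes were not tested. The stricter gate left too few regulatory T cells to fit and was not run for them. Small classes limit depth, with 28 regulatory T cells and 34 NK cells in the untimed SOX17KO library.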
